A study of Mus musculus with 12 samples.

Results

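The aminoacyl-tRNA synthetases are the enzymes that load each transfer RNA (tRNA) with its amino acid, and their transcripts were followed here in mouse B lymphoma cells that had kept or lost the B cell receptor (BCR). The list held 36 genes, 20 for the cytosolic enzymes and 16 for the mitochondrial enzymes, whose gene names end in 2. A gene was measured where a probe set on the array carried its symbol alone, which gave 33 of 36 genes, 17 cytosolic and 16 mitochondrial. Aars (alanine) and Farsb (the beta subunit for phenylalanine) were covered only by probe sets shared with a neighbouring gene, and Dars (aspartate) had no probe set in the annotation used. All 33 measured genes passed the filter on low signals, in a table of 12961 genes tested, and lay above the median of every one of the 12 arrays.

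The cells were primary cultures of B lymphomas from l-MYC;B1-8f mice of the cross C57BL/6J x BALB/c. Their B1-8 heavy chain gene can be deleted by Cre recombinase, and cells of every group shared the MYC transgene. The recombinase was delivered as the cell-permeable protein TAT-Cre to ablate the BCR, and mixed cultures were sorted by flow cytometry after 4 days. Tumours 2567, 2646 and 2676 each gave 1 array in each of 4 groups. BCR-positive cells, BCR-negative cells and BCR-independent cells were untreated, and a further BCR-negative group had been grown with CHIR99021, which blocks the kinase GSK3. BCR-independent cells were derived from BCR-negative tumours by long culture, each mixed again with its tumour's own BCR-positive cells, and each of the 3 samples was 1 clone. Neither the dose of CHIR99021 nor the ages of the mice are given in the sources used here. An unexplained "(2)" ends the titles of 4 arrays, the untreated BCR-positive and BCR-negative samples from tumours 2646 and 2676. Treatment and culture coincide, so they cannot be told apart.

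Signals are on a log2 scale, so a difference of 1 is a 2-fold change. Array medians lay between 3.32 and 3.44. The heavy chain variable segment used by B1-8 gave 9.45 to 9.97 in BCR-positive cells, 5.85 to 6.97 in untreated BCR-negative cells, 3.72 to 4.21 in BCR-independent cells and 4.93 to 6.26 in treated BCR-negative cells, highest in the group sorted for the receptor. Of the B cell markers, Cd79a, Cd79b, Pax5, Ebf1, Cd22 and Blnk lay above the array median on 12 of 12 arrays, whereas Ms4a1 (CD20) stayed between 2.55 and 3.19, below it. The mean of the 6 measured T cell markers lay between 2.90 and 3.11 and that of the 7 myeloid markers between 3.08 and 3.42. Among them Cd8a (3.44 to 3.83) and Itgam (4.08 to 5.97) lay above the array median on 12 of 12 arrays. So did the plasma cell markers Sdc1 (5.32 to 6.25), Xbp1 (5.30 to 6.59) and Irf4 (6.07 to 8.91). The stromal markers Col1a1 (3.99 to 4.38) and Col1a2 (3.70 to 4.24) did as well. Prdm1 and Jchain (plasma cell), Pdgfrb, Dcn and Vcam1 (stromal), and Alas2 and Klf1 (erythroid) lay above it on 0 arrays. Each tumour gave 1 sample per group, so each p-value reflects only the spread among these samples. In sorted populations, a lower signal cannot be told apart from a smaller share of the cells that make the transcript.

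Synthetases join an amino acid to the matching tRNA, using ATP, and the charged tRNA then delivers it to the ribosome. Most amino acids are served by separate cytosolic and mitochondrial enzymes, both encoded in the nucleus. Gars and Kars each encode the glycine and lysine enzymes of both compartments, and Eprs encodes a fused enzyme for glutamate and proline. Several cytosolic enzymes are held in a multi-synthetase complex with the scaffold proteins Aimp1, Aimp2 and Eef1e1. When amino acids run short, uncharged tRNA activates the kinase GCN2 (Eif2ak4), which phosphorylates the initiation factor eIF2, raises translation of the transcription factor ATF4, and leads to transcription of many cytosolic synthetase genes together with Asns, Psat1 and other genes of amino acid supply. MYC also binds the promoters of many genes of protein synthesis, at E-box sequences.

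The promoters are shown first because all matches to the element that ATF4 binds were in cytosolic genes among those searched. RefSeq promoter windows (GRCm38.p6, 250 bases before to 50 after a transcript start) were matched for 27 of the 36 genes, 13 cytosolic and 14 mitochondrial. Cars, Hars, Lars, Nars, Rars, Vars, Wars, Hars2 and Pars2, among them both genes called below, were not searched. The core of the C/EBP-ATF response element, TGATGNAA on either strand (N is any base), was found in 5 of 13 cytosolic windows (Aars, Gars, Iars, Tars and Yars) and in 0 of 14 mitochondrial windows. Of all 27025 genes in the table, 4.51% held it, and of the 17 genes in the list for ATF4 and the amino acid response, 6 did. The E-box CACGTG, again on either strand, was found in 4 of 13 cytosolic windows (Aars, Farsb, Iars and Tars) and in 1 of 14 mitochondrial windows (Ears2), against 8.09% of all genes. In the lists of related genes used below, the E-box was found in 3 of 5 cytosolic elongation factors and 5 of 18 tRNA maturation genes. The ATF4 list held it in 1 of 17 genes and the mitochondrial translation list in 1 of 20. The eIF2 kinase list and the complex scaffolds held it in 0 of 11 and 0 of 3. No match of one motif overlapped a match of the other in the synthetase windows, and a match describes the letters only. The stretches below run from 80 bases before the start to base 20 of the transcript, 5′ to 3′ along the gene's strand, with the response element core in capitals. They cover chr6:55037921-55038020 (plus strand), chr13:49682050-49682149 (plus), chr15:11399639-11399738 (minus) and chr4:129189823-129189922 (plus).
Gars: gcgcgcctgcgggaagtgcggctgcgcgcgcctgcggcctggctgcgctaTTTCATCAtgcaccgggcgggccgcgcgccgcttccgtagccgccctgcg
Iars: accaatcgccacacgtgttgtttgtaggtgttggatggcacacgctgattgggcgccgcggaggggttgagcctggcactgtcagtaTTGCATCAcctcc
Tars: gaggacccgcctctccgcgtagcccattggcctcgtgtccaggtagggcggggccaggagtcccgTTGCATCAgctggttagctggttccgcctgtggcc
Yars: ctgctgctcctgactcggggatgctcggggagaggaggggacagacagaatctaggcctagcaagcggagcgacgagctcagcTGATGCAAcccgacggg

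In Gars the core lies at bases -30 to -23, in Iars at 8 to 15, in Tars at -15 to -8 and in Yars at 4 to 11, where base 1 is the first transcribed base. The Yars core reads on the gene's own strand and the others on the opposite strand. The window of Yars starts 169 bases inside the outer end of the gene. For comparison, the same stretches of the mitochondrial partners Iars2 (chr1:185329382-185329481, minus strand) and Yars2 (chr16:16302885-16302984, plus strand) hold no such core, and are therefore without capitals.
Iars2: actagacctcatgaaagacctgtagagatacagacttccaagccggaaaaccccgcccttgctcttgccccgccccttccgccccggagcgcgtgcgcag
Yars2: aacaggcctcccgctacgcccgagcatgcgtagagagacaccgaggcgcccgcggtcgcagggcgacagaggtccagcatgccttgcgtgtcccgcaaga

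CHIR99021 was added to ask what inhibition of GSK3 does to BCR-negative cells, and of the 3 main comparisons it had the largest fitted change of a synthetase, that of Yars. Most cytosolic synthetases had higher signals in treated than in untreated BCR-negative cells, and most mitochondrial enzymes did so by less. Hars and Nars rose, by 0.53 and 0.64 on the log2 scale. These were the 2 of 33 genes whose p in limma's moderated test, adjusted over all genes by Benjamini-Hochberg, was under 0.05, and 1.91% of the 12961 genes passed in this way (were called), 1.06% as higher. Of the 17 cytosolic genes 16, all but Qars, had a higher signal in 3 of 3 tumours, and their median change was 0.47, a 1.38-fold change. Of the 16 mitochondrial genes, 12 had a fitted change above 0, 6 were higher and 0 lower in 3 of 3 tumours, and the median change was 0.18. Among all genes tested 25.7% were higher in 3 of 3 tumours, 56.7% had a fitted change above 0, as 28 of the 33 did, and the median change was 0.03.

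Hars, which loads histidine, gave 7.71, 7.06 and 7.05 in untreated BCR-negative cells of tumours 2567, 2646 and 2676 and 8.18, 7.57 and 7.66 in treated cells. The treated value was higher in each tumour, by 0.47, 0.51 and 0.60, although the groups overlapped because tumour 2567 was high in both. The fitted change was 0.53 (SE 0.091, 95% interval 0.32 to 0.73, n = 3 tumours), a 1.44-fold change, with an adjusted p of 0.0338 in limma.

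Nars, which loads asparagine, gave 8.68, 8.24 and 8.06 without and 9.12, 9.04 and 8.74 with CHIR99021. Every treated array lay above every untreated one. The fitted change was 0.64 (SE 0.131, 95% interval 0.35 to 0.93, n = 3 tumours), a 1.56-fold change, with a limma adjusted p of 0.0479.

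Yars, the tyrosine enzyme, had the largest fitted change, 0.69 (SE 0.179, limma adjusted p = 0.0944, n = 3 tumours). Its signal was 7.31, 6.47 and 6.17 without and 7.63, 7.53 and 6.85 with the inhibitor, and the groups overlapped. Cars, the cysteine enzyme, gave 6.58, 6.36 and 6.05 without and 6.91, 7.23 and 6.70 with it, with no overlap. Its fitted change was 0.61 (SE 0.155, limma adjusted p = 0.0902, n = 3 tumours). Neither passed the threshold.

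**Figure D1:**
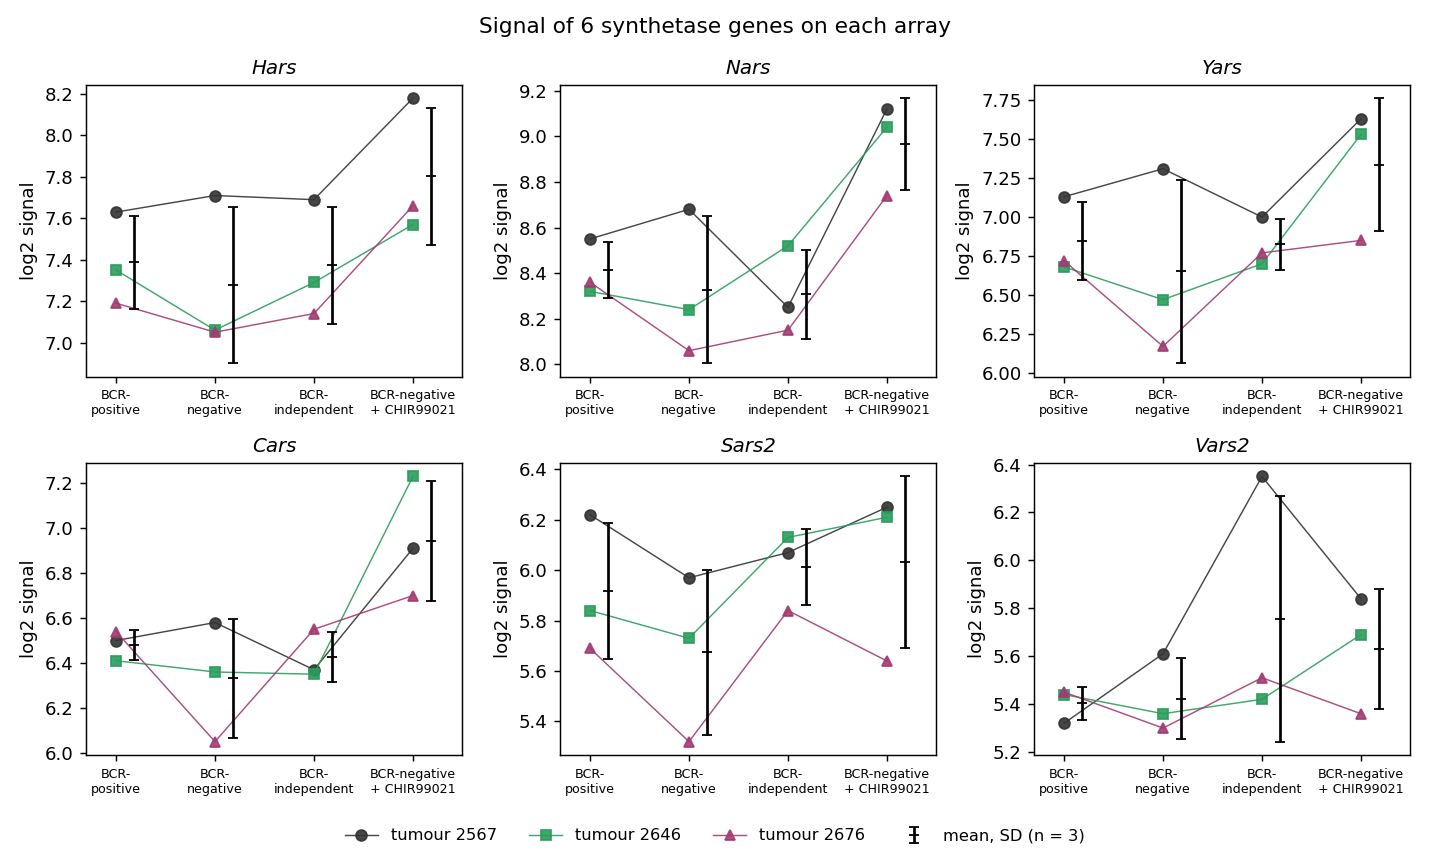
Signals (log2, vertical axis) of 6 synthetase genes in the 4 groups (horizontal axis). Each symbol is 1 array, thin lines join the arrays of a tumour, and the black mark beside each group is the mean with its SD (n = 3). Hars and Nars are highest in the treated group in every tumour, and the BCR-independent array of tumour 2567 stands highest for Vars2, at 6.35.

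The other cytosolic enzymes fell between these and no difference. Lars (leucine), Tars (threonine), Iars (isoleucine), Mars (methionine) and Gars (glycine) had fitted changes of 0.59, 0.51, 0.49, 0.48 and 0.47. Sars (serine), Farsa (the alpha subunit of the phenylalanine enzyme), Eprs and Wars (tryptophan) followed at 0.40, 0.39, 0.38 and 0.34, and Rars (arginine) at 0.27. The smallest changes were those of Kars at 0.14, Vars (valine) at 0.09 and Qars (glutamine) at -0.06. Of the 17 genes, 14 had a 95% interval that lay above 0, and over the 33 genes 19 had an unadjusted p under 0.05, against 16.6% of all genes. The 15 cytosolic genes that were not called had adjusted p-values from 0.0623 (Eprs) to 0.884.

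Qars, Vars and Kars were the 3 cytosolic genes whose 95% interval included 0. Qars gave 8.27, 8.37 and 8.35 without and 8.45, 8.30 and 8.08 with CHIR99021, so it was higher in tumour 2567 and lower in tumours 2646 and 2676. Vars gave 8.48, 8.44 and 8.02 without and 8.49, 8.49 and 8.25 with it. Kars gave 8.07, 7.72 and 7.85 without and 8.20, 7.92 and 7.94 with it, so Vars and Kars were slightly higher in each tumour.

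The cytosolic enzymes were also divided by complex and by catalytic class. The 7 measured members of the complex (Eprs, Iars, Kars, Lars, Mars, Qars and Rars) had a median change of 0.38, and 6 were higher. The 10 outside it had a median of 0.49, and all were higher. The medians of cytosolic enzymes of class I, whose catalytic domain has a Rossmann fold, and of class II were 0.43 and 0.47. Among the mitochondrial enzymes all 9 of class I were higher, with a median of 0.30, whereas 3 of 7 of class II were higher, with a median of -0.0003. In tumours 2567, 2646 and 2676 the class I medians were 0.23, 0.26 and 0.21. Those of class II were 0.17, -0.09 and -0.03, so the classes were closest in tumour 2567. These divisions are descriptions and were not tested.

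**Figure D2:**
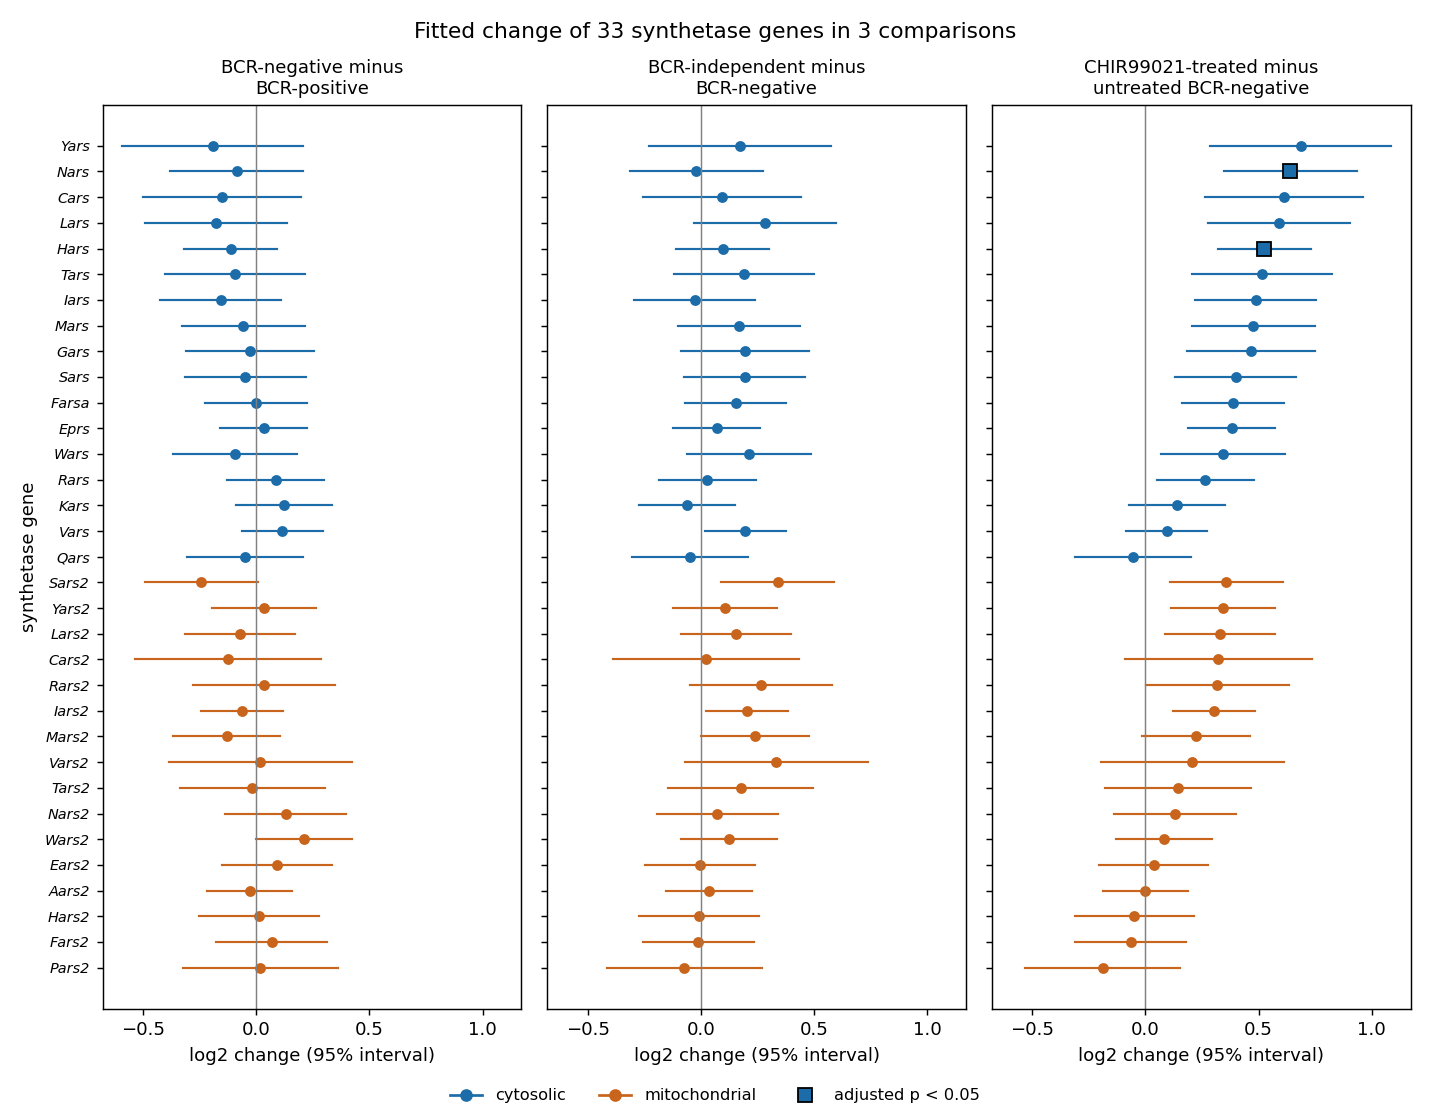
Fitted log2 change (horizontal axis) of the 33 genes (rows) in 3 comparisons, with 95% intervals from limma. Circles did not pass the threshold, and the outlined squares in the right-hand panel mark Hars and Nars, the 2 genes called; 14 cytosolic intervals there lie above 0.

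The size of the treated-minus-untreated difference varied between tumours. The median over the 17 cytosolic genes was 0.20 in tumour 2567, 0.57 in tumour 2646 and 0.53 in tumour 2676. Untreated cells of tumour 2567 already had the highest signal of the 3 tumours for 16 of 17 cytosolic genes. The median cytosolic signal was 8.07, 7.72 and 7.70 without CHIR99021 and 8.20, 8.16 and 7.94 with it. In untreated BCR-independent cells it was 7.90, 7.73 and 7.83. The mitochondrial median was 5.21, 5.37 and 5.21 without CHIR99021 and 5.59, 5.68 and 5.19 with it. Lars shows the range between tumours, with treated-minus-untreated differences of 0.11, 0.91 and 0.75 in tumours 2567, 2646 and 2676.

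The tumours also differ in the title mark. In tumour 2567 neither array carries it, and in tumours 2646 and 2676 the untreated array does and the treated one does not. Its part in the result was not tested directly. With the mark as a further term, the median cytosolic change was 0.31, Hars changed by 0.53 (limma adjusted p = 0.145) and Nars by 0.44 (adjusted p = 0.291), and 0 of 33 genes were called. Without tumour 2567, 2646 or 2676 no member was called either. Over all 12961 genes, calls fell from 248 to 32 with the mark, and to 17, 1 and 10 without these tumours in turn.

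**Figure D3:**
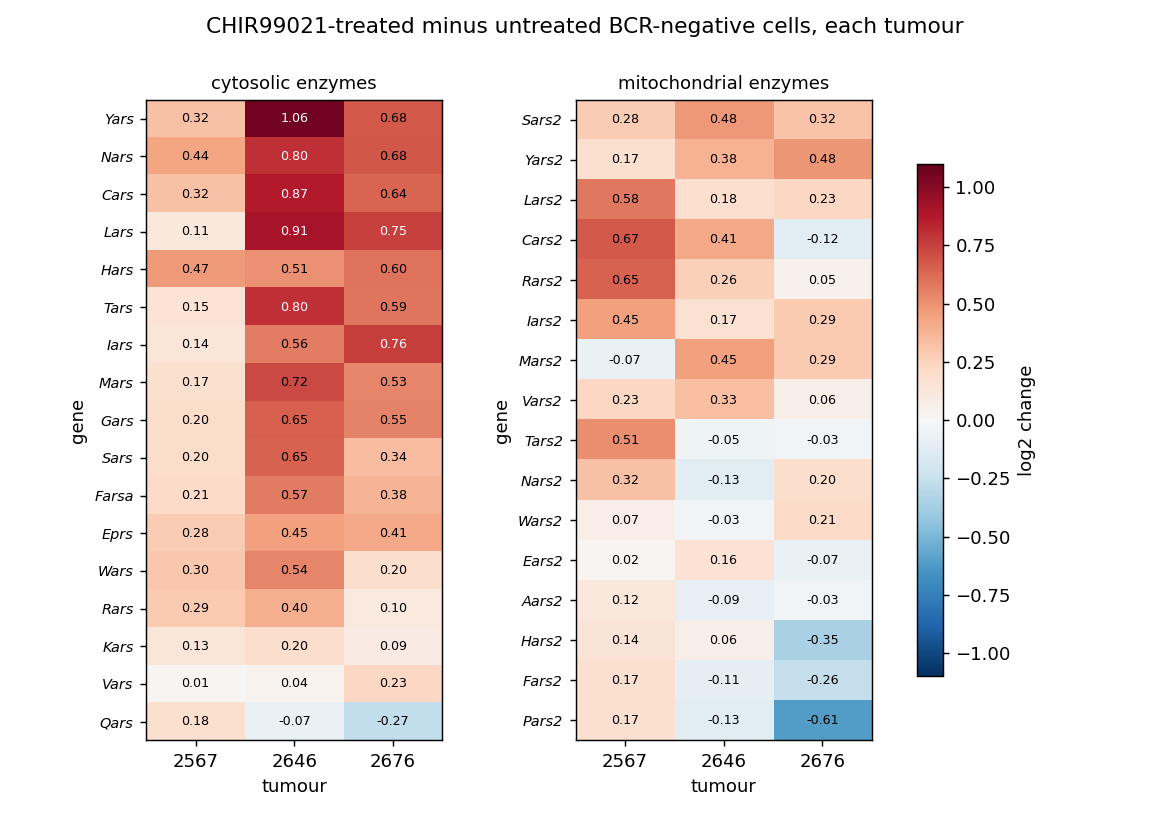
Treated-minus-untreated log2 difference of BCR-negative cells in each tumour (columns) for each gene (rows, ordered by fitted change), with red for higher and blue for lower in treated cells. In the cytosolic panel every cell except Qars in tumours 2646 and 2676 is positive, and the column of tumour 2567 has the smallest median (0.20).

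The mitochondrial enzymes differed less. Sars2, Yars2, Lars2, Cars2, Rars2 and Iars2 led them, with fitted changes of 0.36, 0.34, 0.33, 0.32, 0.32 and 0.30. Sars2 gave 5.97, 5.73 and 5.32 without and 6.25, 6.21 and 5.64 with CHIR99021, higher in each tumour. Iars2 gave 7.17, 6.95 and 6.47 without and 7.63, 7.12 and 6.76 with it. Rars2, at 4.92, 5.45 and 5.14 without and 5.57, 5.71 and 5.19 with it, differed mainly in tumour 2567. At the other end Pars2, the mitochondrial proline enzyme, had a fitted change of -0.19. Of the 16 genes, 5 had an interval above 0 and 0 an interval below 0, and their lowest adjusted p was 0.102. By tumour the median was 0.20, 0.16 and 0.05, largest in tumour 2567, where the cytosolic median was smallest.

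For 15 amino acids the array measured an enzyme in each compartment, with Eprs standing for both glutamate and proline. The cytosolic enzyme had the larger fitted treated-minus-untreated change for 13 of the 15, in 3 of 3 tumours for 7 of them, with a median difference of 0.29. Proline and histidine were widest apart, at 0.57 each. Hars and Hars2 are neighbours on chromosome 18, and their changes were 0.53 and -0.05. Arginine and valine were the exceptions, with mitochondrial changes of 0.32 and 0.21 against cytosolic changes of 0.27 and 0.09. In tumour 2567, where neither array carries the title mark, the cytosolic enzyme had the larger difference for 8 of 15 amino acids, with a median of 0.04, and both class medians were 0.20. In tumours 2646 and 2676 it did for 14 of 15 each, with medians of 0.46 and 0.49. The mitochondrial genes were also the dimmer class. The median of the genes' mean signals over the 12 arrays was 7.87 for cytosolic and 5.39 for mitochondrial genes. Pars2, of the proline pair, had a mean of 3.705, close to the array medians. These differences between enzymes, and the part of signal level in them, were not tested.

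**Figure D4:**
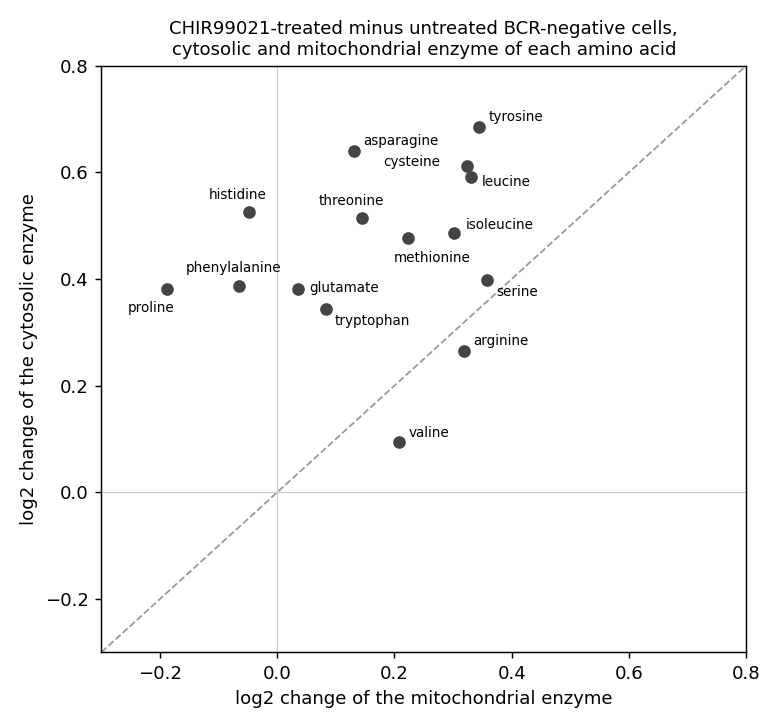
Fitted log2 change of the cytosolic enzyme (vertical axis) against that of the mitochondrial enzyme (horizontal axis) for 15 amino acids, treated minus untreated BCR-negative cells. Points above the dashed line of equality have the larger cytosolic change; arginine and valine lie below it.

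Treated BCR-negative cells were also set against the other 2 groups, which share the treated arrays with the comparison above. Against untreated BCR-positive cells, 16 of 17 cytosolic genes were higher (all genes, 57.1%), 15 of them in 3 of 3 tumours (all genes, 21.2%), with a median of 0.41. Nars was higher by 0.56 (SE 0.131), Yars by 0.49 (SE 0.179) and Hars by 0.41 (SE 0.091, n = 3 tumours each). In this comparison 0 of 33 genes were called by limma, with 0.802% of all genes called, while 20 had an unadjusted p under 0.05 (all genes, 15.6%). The lowest adjusted p of a cytosolic gene was 0.0622, that of Eprs, whose change was 0.42.

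Against BCR-independent cells, an untreated group in which no title carries the mark, 15 of 17 cytosolic genes were higher (all genes, 52.8%), 14 of them in 3 of 3 tumours (all genes, 19.4%), with a median of 0.31. Nars (0.66, SE 0.131), Cars (0.52, SE 0.155), Iars (0.51, SE 0.119) and Yars (0.51, SE 0.179) had the largest changes. The mitochondrial genes divided evenly, with 8 of 16 higher and a median of 0.00. The cytosolic enzyme had the larger fitted change for all 15 amino acids, and for 12, 14 and 12 of them within tumours 2567, 2646 and 2676. Again 0 of 33 were called (all genes, 0.162%), and 11 had an unadjusted p under 0.05 (all genes, 12.3%). Vars was lower in treated cells in 3 of 3 tumours, by a fitted change of -0.10.

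Untreated BCR-negative and BCR-positive cells, compared to ask what loss of the receptor does in mixed culture, differed little in these genes. By limma 0 of 33 were called (all genes, 0.00772%) and 0 had an unadjusted p under 0.05 (all genes, 3.19%). Of the cytosolic genes 5 were higher (all genes, 49.7%) and 12 lower (all genes, 50.3%) in BCR-negative cells, with a median of -0.06, and of the mitochondrial genes 9 were higher and 7 lower, with a median of 0.02. The 95% intervals of the 33 genes reached from -0.59 to 0.42 at their outer ends. Higher in 3 of 3 tumours were 4 genes (all genes, 12.4%).

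The largest difference alike in the 3 tumours was in Sars2, the mitochondrial serine enzyme. It gave 6.22, 5.84 and 5.69 in BCR-positive cells of tumours 2567, 2646 and 2676 and 5.97, 5.73 and 5.32 in BCR-negative cells. The groups overlapped, and the fitted change was -0.24 (SE 0.111, n = 3 tumours). Qars changed by -0.05 and Iars2 by -0.06, from 8.34, 8.42 and 8.39 for Qars and from 7.27, 6.98 and 6.54 for Iars2 in BCR-positive cells.

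In the other direction Nars2 gave 4.57, 4.61 and 4.51 in BCR-positive and 4.65, 4.84 and 4.59 in BCR-negative cells, a change of 0.13 (SE 0.119). Vars gave 8.32, 8.27 and 8.01 in BCR-positive cells and changed by 0.12 (SE 0.080). Ears2, at 3.55, 3.54 and 3.66 in BCR-positive and 3.72, 3.63 and 3.68 in BCR-negative cells, changed by 0.09 (SE 0.108) and lay close to the array medians. Within tumours the cytosolic median was 0.10 in tumour 2567, -0.05 in tumour 2646 and -0.26 in tumour 2676.

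BCR-independent cells were compared with BCR-negative cells to ask what the clones that persist in culture have changed. Their synthetase signals were mostly slightly higher. This held for 13 of 17 cytosolic genes, with a median of 0.15, and for 12 of 16 mitochondrial genes, with a median of 0.12, against 55.3% of all genes. By limma 0 of 33 were called (all genes, 0.00772%), and 4 had an unadjusted p under 0.05 (all genes, 5.99%). In 3 of 3 tumours 9 genes were higher (all genes, 16.0%) and 0 lower (all genes, 10.3%). The cytosolic median was -0.10 in tumour 2567, whose arrays carry no mark, and 0.18 and 0.23 in tumours 2646 and 2676, where the BCR-negative array does. With the mark as a term it was -0.03, and the mitochondrial median 0.22.

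The 3 largest changes among genes higher in every tumour were mitochondrial. Sars2, at 5.97, 5.73 and 5.32 in BCR-negative cells, gave 6.07, 6.13 and 5.84 in BCR-independent cells, a change of 0.34 (SE 0.111, limma adjusted p = 0.796, n = 3 tumours). Vars2 gave 5.61, 5.36 and 5.30 in BCR-negative and 6.35, 5.42 and 5.51 in BCR-independent cells, a change of 0.33 (SE 0.180) that came mostly from the clone of tumour 2567. Rars2 gave 5.46, 5.54 and 5.32 in BCR-independent cells, a change of 0.27 (SE 0.140), also widest in tumour 2567.

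Against BCR-positive cells, BCR-independent cells again had 0 of 33 genes called (all genes, 0.0849%) and 2 with an unadjusted p under 0.05 (all genes, 9.61%). These 2 were Vars and Wars2, each higher in 3 of 3 tumours with groups that overlapped. Vars, which gave 8.72, 8.56 and 8.25 in BCR-independent cells, was higher by 0.31 (SE 0.080, limma adjusted p = 0.304). Wars2, the mitochondrial tryptophan enzyme, was higher by 0.335 (SE 0.094, limma adjusted p = 0.3205). Of the cytosolic genes 11 of 17 were higher (all genes, 55.7%), with a median of 0.10, and of the mitochondrial genes 14 of 16, also with a median of 0.10. With the title mark as a term these medians were -0.01 and 0.26.

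The genes that work with the synthetases were followed in 6 lists. In treated against untreated BCR-negative cells, the list for tRNA export, maturation and quality held 1 called gene, the only call among the 80 genes tested in the 6 lists. That is 1.25%, against 1.91% of all genes. Rpp40, a subunit of the ribonucleases that trim tRNA and ribosomal RNA precursors, rose from a mean of 4.19 to 4.91, by 0.72 (SE 0.135, limma adjusted p = 0.0387), with differences of 1.05, 0.78 and 0.32 in tumours 2567, 2646 and 2676. Of the 21 tested genes in that list 18 were higher (all genes, 56.7%), with a median of 0.25. Xpot, which exports tRNA from the nucleus, changed by 0.50 (SE 0.122, adjusted p = 0.0795).

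The list for ATF4 and the amino acid response holds 17 genes, of which 14 were tested. In it 12 of 14 genes were higher (all genes, 56.7%), 5 of them in 3 of 3 tumours (all genes, 25.7%), with a median of 0.39, and 0 were called. The list's median was 0.08 in tumour 2567, near the 0.06 of all genes there, and 0.71 and 0.31 in tumours 2646 and 2676. Asns, which makes asparagine, was higher by 0.87 (SE 0.413, adjusted p = 0.336), with differences of 0.65, 0.80 and 1.16. The change of Atf4 itself was 0.36 (SE 0.196), with -0.16 in tumour 2567 and 0.78 and 0.46 in the others. Shmt2 and Psat1, enzymes of serine and glycine synthesis, changed by 0.52 and 0.50. The other 2 genes had lower signals in 3 of 3 tumours. Ddit4, an inhibitor of mTORC1 signalling, had the largest change of the list, -0.92 (SE 0.286, adjusted p = 0.141), with differences of -0.15, -0.91 and -1.69. Cebpg, which encodes a C/EBP protein that pairs with ATF4, had a fitted change of -0.44 (SE 0.096, adjusted p = 0.0575). Nupr1, a small stress-response protein, changed by 0.43 (adjusted p = 0.0662) at signals near the array median.

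Among the eIF2 kinases and regulators of GCN2, 8 of 13 were higher, near the share of all genes (56.7%), with a median of 0.14. Eif2b1 and Eif2b3, subunits of the exchange factor that recharges eIF2, changed by 0.46 and 0.54, with adjusted p-values of 0.0732 and 0.0761. Eif2ak4, the GCN2 kinase, changed by -0.11 (SE 0.123). Of the complex scaffolds Eef1e1 changed by 0.43 (SE 0.104, adjusted p = 0.0793), Aimp2 by 0.07 and Aimp1 by -0.02.

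Of 7 cytosolic elongation factors 5 were higher (all genes, 56.7%), with a median of 0.01. Eef2k, the kinase that inhibits elongation factor 2, was lower in 3 of 3 tumours by a fitted change of -0.86 (SE 0.202, adjusted p = 0.0716), and Eef1d changed by 0.28. Of 22 mitochondrial translation factors and tRNA-modifying enzymes 19 were higher (all genes, 56.7%), with a median of 0.19, and 0 were called. Tufm, the mitochondrial elongation factor Tu, had the smallest p, with a change of 0.36 (SE 0.081, adjusted p = 0.0627). Ptcd3, a protein of the mitochondrial ribosome, had the largest change, 0.37 (adjusted p = 0.102).

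In the same comparison the B cell marker list had array means from 7.84 to 8.34 in untreated and from 7.49 to 7.96 in treated cells. The B cell transcription factors Ebf1 and Pax5 had fitted changes of -1.21 and -0.46, and Cd79b of the BCR -0.42. Cd22 changed by -0.37, Cd79a by 0.04 and Blnk by -0.00022, while Ms4a1 did not pass the filter. Irf4, a factor of plasma cells that B cells also make, changed by -1.12. None of the tested genes named here was called. T cell markers averaged 2.90 to 3.0 in untreated and 3.04 to 3.11 in treated cells, which did not overlap but lay below the array medians. Of the 4 tested myeloid markers, Itgam changed by -0.52, Mpo by -0.23, Fcgr1 by -0.04 and Csf1r by 0.40, and none was called. Plasma cell markers averaged 4.93 to 5.41 in untreated and 4.69 to 5.21 in treated cells. Their part in the synthetase result was not tested.

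No gene of the 6 lists was called in the comparisons of untreated cells. With loss of the BCR, Eif2ak4 changed by 0.45 (SE 0.123, adjusted p = 0.999), higher in 3 of 3 tumours, and Aimp1 by 0.35 (SE 0.131). Psat1 changed by -0.30 and Phgdh, which starts serine synthesis, by 0.18, while Eef1e1 changed by -0.25 and Ppp1r15b, a regulator of the phosphatase for eIF2, by -0.20. Gatb, of the mitochondrial pathway that makes glutaminyl-tRNA, changed by 0.24, Ptcd3 by -0.18, the tRNA proofreading enzymes Dtd1 and Prorsd1 by 0.17 and -0.13, and the translation factors Eif5a and Eef1d by -0.07 and 0.06. In BCR-independent against BCR-negative cells Eif2ak4 and Aimp1 had changes of -0.26 and -0.23, lower in 3 of 3 tumours, in a comparison that shares the BCR-negative arrays. There Cebpg changed by -0.32 (SE 0.096), Ddit4 by -0.85 (SE 0.286), and Ptcd3 by 0.33 (SE 0.10). For ATF4 and the amino acid response 12 of 14 genes were higher (all genes, 55.3%), with a median of 0.20. Of these genes, 4 were higher in 3 of 3 tumours (all genes, 16.0%). The list's median was 0.01 in tumour 2567 and 0.20 and 0.22 in tumours 2646 and 2676. The tRNA-processing genes Trmt61a and Elac2 changed by 0.45 and 0.28, Trit1 by 0.23, Ppp1r15b by 0.24, Eef1e1 by 0.20, Eef1d by 0.05 and Eef2k by -0.39.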

How the data were processed

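RNA of 12 sorted samples (4 groups of 3 tumours) was read on Affymetrix Mouse Gene arrays. The deposited values are log2 signals, for which the submitters' processing notes name RMA and Affymetrix Power Tools, with versions not given in the sources used here. RMA compresses differences between dim probe sets. No test compared the signals of different probe sets, and levels of genes or classes set side by side are descriptions. Signals were used as deposited. Probe sets with 1 gene symbol were kept when they exceeded the 40th percentile of an array on 3 or more arrays, and the probe set with the highest mean stood for its gene. A model of group and tumour over the 12 arrays was fitted with limma 3.58.1 in R 4.3.3 (6 residual degrees of freedom), two-sided, with Benjamini-Hochberg adjustment over 12961 genes. The tumour number in the titles pairs the arrays: residuals of same-tumour arrays correlated between 0.2842 and 0.7919, those of different tumours between -0.7159 and 0.165. Residuals were taken from means of 3 arrays per group, which by itself pulls arrays of different tumours within a group below 0. The negative values are therefore no evidence for the pairing. The script was tested on simulated data, with planted changes larger than any fitted change of a synthetase given here. That test does not show how well smaller changes would be recovered.

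Values on each array are given for members called anywhere. In each main comparison they are also given for the 3 largest increases and decreases alike in 3 tumours. Of the 6 pathway lists, fitted changes are given for called genes and for the 2 with the smallest p in each main comparison. Atf4, Asns, Shmt2, Psat1, Eif2ak4, Aimp1, Aimp2 and Ddit4 were added after their values were seen. Members, lists, motifs and alternatives were chosen with earlier results of these data known. Promoters come from RefSeq and gene names were updated through its GRCm38.p6 table. Alternatives were no tumour block, no filter or a 60th percentile filter, an intensity trend, cyclic loess, quantile normalization, array weights, a fit of only 2 groups, the mean over a gene's probe sets, the title mark as a term, and each tumour left out.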

Additional observations from a re-analysis of the deposited data

How the results depend on the processing

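The count of members called in treated against untreated BCR-negative cells (2) changed with several settings. It was 0 without the replicate block for tumour, 0 with only the 2 groups, 0 with the title mark as a term, 0 to 0 with each tumour left out, 1 (Hars) without the filter and 16 with array weights. Over 13 alternatives the change of Hars lay between 0.4752 and 0.5537 and was called in 7 (adjusted p 0.003584 to 0.6597), and that of Nars lay between 0.4412 and 0.7425 and was called in 6 (adjusted p 0.003673 to 0.4001). Over all genes this comparison had 248 calls, 12 without the block, 109 with only the 2 groups, 32 with the mark, 17, 1 and 10 without tumours 2567, 2646 and 2676, and 1635 with array weights. The cause was not tested. In treated against BCR-positive cells array weights called 1 member (Eprs, against 0). Qars in BCR-negative against BCR-positive cells turned to 0.00264 with array weights. With the mark, the median cytosolic change in BCR-independent cells turned from 0.15 to -0.03 against BCR-negative and from 0.10 to -0.01 against BCR-positive cells. In the same comparisons the mitochondrial medians went from 0.12 to 0.22 and from 0.10 to 0.26. The cytosolic median of treated against BCR-positive cells went from 0.41 to 0.26. The other counts of members called were the same. The 60th percentile filter left 31 members. With 3 tumours the median standard error was 0.117, which limits what can be called.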

Other observations

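Aars and Farsb were measured only together with a neighbouring gene. The probe set shared by Aars and Exosc6 was higher in treated than in untreated BCR-negative cells by 0.12, 0.85 and 0.58 in tumours 2567, 2646 and 2676, a mean of 0.52 (SD 0.37, n = 3). The probe set shared by Farsb and Sgpp2 was higher by 0.35, 0.66 and 0.41, a mean of 0.48 (SD 0.17, n = 3). Which of the 2 genes gives the signal cannot be told apart. Iars had a second probe set, whose mean difference was 0.37 against 0.49 for the one reported. Tarsl2, a second cytosolic threonine enzyme outside the list, was higher by 0.19, 0.21 and 0.27, a mean of 0.22 (SD 0.046, n = 3), while a probe set it shares with Tm2d3 differed by 0.32, -0.39 and -0.24, a mean of -0.11 (SD 0.37, n = 3). The probe set that Mars shares with Ddit3 differed by -0.22, 0.21 and -0.33, a mean of -0.11 (SD 0.28, n = 3), against a fitted change of 0.48 for the probe set of Mars alone.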
